A study of Rattus norvegicus with 9 samples.

Results

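Otoconia and the gels that carry them were followed through 9 genes in vestibular epithelia of rats exposed to 3,3′-iminodipropionitrile (IDPN), a nitrile that damages vestibular hair cells (HCs). The genes were chosen by symbol, with earlier results of these data known. They are Oc90, Otol1, Otog, Otogl, Otoa, Tecta, Tectb, Ceacam16 and Sparcl1. All 9 were found once each among the 32883 genes of the deposited count table, and all 9 passed the filter on low counts that left 15517 genes for testing. The animals were male Long-Evans rats that drank plain water (Control) or water with 20 mM IDPN for 3 weeks (IDPN-3wk) or 7 weeks (IDPN-7wk). Each library came from 1 rat, whose utricles and cristae were pooled, and there were 3 libraries per group. The saccule was not part of the sample. A single Control group, which held rats killed at both times, served both exposures, and the labels do not say which Control rat belongs to which time. The age of these rats is not given in the sources used here. Sample titles open with a code of unstated meaning, which all 3 Control rats share and no exposed rat has, so whatever the code marks and the exposure cannot be told apart. Replicate 1 of IDPN-3wk and replicate 1 of IDPN-7wk share another code, and the other 2 rats of each exposed group share one of their own.

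In the utricle, calcium carbonate crystals called otoconia lie on a gel, the otolithic membrane, and their weight deflects the hair bundles when the head tilts or accelerates. In the cristae the gel is a cupula, which bears no otoconia. Otoconin-90 (Oc90) and otolin-1 (Otol1) are proteins of the organic core on which the crystals grow, and Sparcl1 encodes a calcium-binding matrix protein that is also made by glia and other cells. Otogelin (Otog), otogelin-like (Otogl), alpha-tectorin (Tecta) and beta-tectorin (Tectb) are structural proteins of these gels, and otoancorin (Otoa) fixes the gels to the surface of supporting cells. Ceacam16 is best known from the tectorial membrane, the corresponding gel of the cochlea. Most of these genes are active in supporting and nonsensory cells rather than in HCs.

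RefSeq promoter windows on the build GRCr8 were held for 7 of the 9 genes (all except Oc90 and Tecta). The count table was made on the older build Rnor6.0, so these positions do not carry over to it. The 250 bases before the start are shown for Otog, Otogl, Tectb and Sparcl1, because these 4 genes were called lower after 7 weeks. Capitals mark matches, on either strand, to 5 motifs, namely CANNTG (the E-box of basic helix-loop-helix factors), ACAAAG (bound by SOX and TCF factors), GGGCGG (the GC box), GATAAG (the GATA motif) and TATAAA (the TATA box).
Otog, chr1:105882497-105882746, plus strand: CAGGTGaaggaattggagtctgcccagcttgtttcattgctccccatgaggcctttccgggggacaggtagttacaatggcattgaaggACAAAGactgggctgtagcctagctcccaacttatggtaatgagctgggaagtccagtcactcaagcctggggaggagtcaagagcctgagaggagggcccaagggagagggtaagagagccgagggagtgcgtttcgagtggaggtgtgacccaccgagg
Otogl, chr7:45097870-45098119, minus strand: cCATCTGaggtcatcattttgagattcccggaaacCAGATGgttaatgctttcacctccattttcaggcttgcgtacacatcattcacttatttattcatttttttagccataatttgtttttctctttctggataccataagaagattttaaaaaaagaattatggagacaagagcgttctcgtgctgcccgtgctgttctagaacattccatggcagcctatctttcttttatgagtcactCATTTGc
Tectb, chr1:264226713-264226962, plus strand: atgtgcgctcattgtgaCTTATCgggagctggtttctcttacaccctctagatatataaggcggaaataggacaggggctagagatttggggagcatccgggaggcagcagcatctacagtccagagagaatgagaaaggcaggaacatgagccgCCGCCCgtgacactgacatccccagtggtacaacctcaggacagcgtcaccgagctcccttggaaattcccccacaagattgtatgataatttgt
Sparcl1, chr14:5937234-5937483, plus strand: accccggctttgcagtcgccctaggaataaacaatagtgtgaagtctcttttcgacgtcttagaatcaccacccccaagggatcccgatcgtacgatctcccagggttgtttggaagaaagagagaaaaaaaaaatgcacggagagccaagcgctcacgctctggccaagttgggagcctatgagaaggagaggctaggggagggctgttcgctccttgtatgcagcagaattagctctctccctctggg
No match overlapped another, and no motif was found in all 4 windows. Otog held 1 CANNTG and 1 ACAAAG match, and Otogl held 3 CANNTG matches. In Tectb there were 1 GGGCGG and 1 GATAAG match, while the Sparcl1 window held no match to any of the 5 motifs. Over all 33469 windows of this length, CANNTG was found in 65.5%, ACAAAG in 16.3%, GGGCGG in 30.5%, GATAAG in 6.18% and TATAAA in 12.9%. The 4 windows also differed in base composition, with 56.4% G and C in Otog, 38% in Otogl, 51.6% in Tectb and 52.4% in Sparcl1, against a median of 51.2% over all windows.

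Levels are given as CPM, a gene's counts relative to the size of its library after TMM scaling. Library totals ran from 31100118 to 46018385 counts, and 3 counts correspond to 0.0611 to 0.101 CPM, a floor that covers counting error only because the reads carry no molecular identifiers. At equal depth, 3 libraries (replicate 3 of Control, replicates 1 and 2 of IDPN-3wk) showed 15199 to 15387 detected genes, and the other 6 had 16396 to 17030. Differences are therefore also given within these sets of libraries, as differences of means of log2(CPM + 2) over 1 to 3 libraries a side and with no test. Transcript lengths were not used here, so levels are compared between groups for one gene and not between genes.

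After 7 weeks of IDPN the RNA of both otogelins, of beta-tectorin and of Sparcl1 was lower and that of otoconin-90 higher than in Control rats, while after 3 weeks otogelin-like alone passed both the p and the fold threshold. At 3 weeks 1 of the 9 genes was called lower, Otogl, and 0 were called higher (4 of the 9 had an unadjusted p under 0.05), where a call is an edgeR adjusted p under 0.05 with a fold change above 1.5. Over all genes tested, 1.21% were called lower and 0.438% higher in this comparison. At 7 weeks 4 of the 9 genes were called lower (Otog, Otogl, Tectb and Sparcl1) and 1 higher (Oc90), against a background of 3.13% lower and 2.00% higher. Over the 9 genes the log2 fold change had a median of -0.28 (3 weeks) and -0.48 (7 weeks), and over all genes tested one of -0.00047 and 0.0097. The 3 exposed rats lay outside the range of the 3 Control rats for 5 of the 9 genes at 3 weeks, all of them lower (background 19.6% of genes), and for 8 of the 9 at 7 weeks, 6 lower and 2 higher (background 34.3%). DESeq2 gave the same 5 genes at 7 weeks (background 8.81%) and called 3 genes at 3 weeks, adding Otog and Tectb to Otogl (background 5.04%). Both comparisons use the same Control rats. The 9 genes, and the lists used below, were chosen with earlier results of these data known. The shares over all genes are therefore given for scale and are no test of the set. In a whole tissue, fewer cells of a type and less RNA per cell cannot be told apart.

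**Figure D1:**
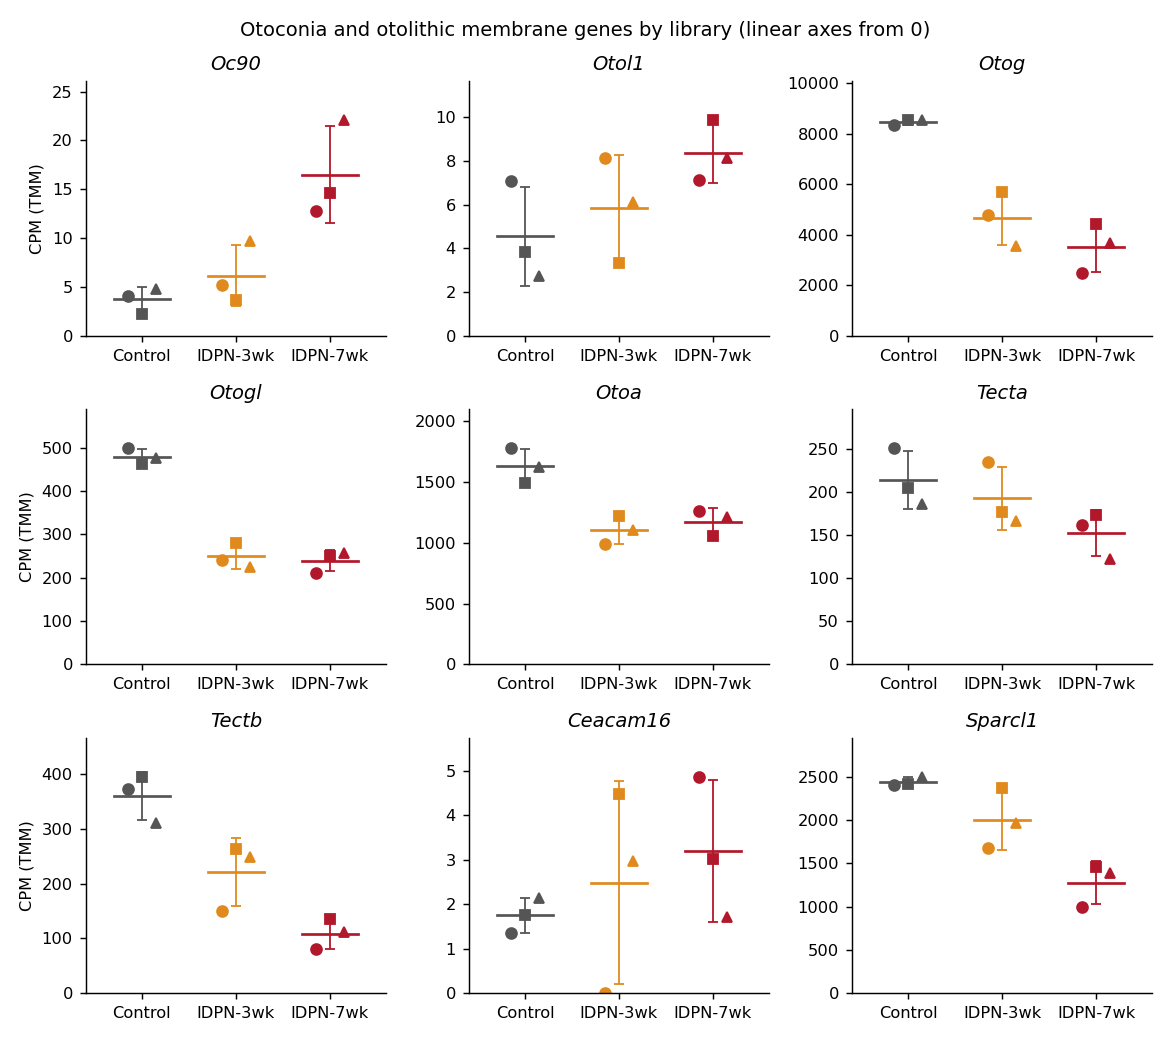
CPM of the 9 genes in each library on linear axes from 0, with circles, squares and triangles for replicates 1, 2 and 3, bars for the mean of 3 rats and whiskers for 1 SD. The 3 IDPN-7wk rats lie below all 3 Control rats for Otog, Otogl, Otoa, Tecta, Tectb and Sparcl1 and above them for Oc90 and Otol1.

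Among the genes of the otoconial core, Oc90 rose after 7 weeks from a low level. Oc90 (ENSRNOG00000025516) had 4.1, 2.29 and 4.81 CPM in the Control rats, 5.18, 3.67 and 9.69 CPM in the IDPN-3wk rats and 12.8, 14.6 and 22.1 CPM in the IDPN-7wk rats. Every IDPN-7wk rat was above every other rat, while the Control and IDPN-3wk ranges overlapped. The means were 3.73 ± 1.3, 6.18 ± 3.13 and 16.5 ± 4.94 CPM (SD, n = 3), and the counts behind them ran from 73 to 873. At 7 weeks this was a 4.41-fold higher level than in Control rats, or 2.14 on the log2 scale (standard error, SE, 0.428, edgeR adjusted p = 0.016). The call rested on single libraries, since the edgeR adjusted p was 0.0584 without Control replicate 1, 0.0637 without Control replicate 2 and 0.075 without IDPN-7wk replicate 3. At 3 weeks the log2 fold change was 0.73 (SE 0.417, edgeR adjusted p = 0.436), and the difference of means of log2(CPM + 2) was -0.094 among the libraries with fewer detected genes and 1.19 among the others. Within the latter libraries the difference at 7 weeks was 1.82.

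Otol1, which encodes a collagen-like scaffold protein of the otoconial core, rested on 98 to 480 counts per library. Otol1 (ENSRNOG00000021186) had 7.09, 3.82 and 2.76 CPM in the Control rats, 8.15, 3.33 and 6.12 CPM in the IDPN-3wk rats and 7.11, 9.87 and 8.13 CPM in the IDPN-7wk rats. The lowest IDPN-7wk rat stood just above the highest Control rat, and the IDPN-3wk rats covered almost the whole span. The mean went from 4.56 ± 2.26 to 5.87 ± 2.42 and 8.37 ± 1.4 CPM (SD, n = 3). No difference passed the test, with log2 values of 0.36 after 3 weeks (95% interval -0.59 to 1.32, edgeR adjusted p = 0.744) and 0.88 at 7 weeks (interval -0.081 to 1.83, adjusted p = 0.307). The intervals given here are not adjusted for the number of genes.

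Sparcl1 fell after 7 weeks. The Control rats had 2407, 2421 and 2501 CPM of Sparcl1 (ENSRNOG00000015093), the IDPN-3wk rats 1674, 2377 and 1966 CPM and the IDPN-7wk rats 990, 1457 and 1384 CPM. The ranges of the groups were apart and ordered by length of exposure, although IDPN-3wk replicate 2 was only just below the lowest Control rat. The fall at 7 weeks was 1.91-fold, with a log2 fold change of -0.94 (SE 0.157, edgeR adjusted p = 0.00686), and within the libraries with more detected genes the difference of means of log2(CPM + 2) was -0.94. After 3 weeks the log2 fold change was -0.28 (SE 0.155, edgeR adjusted p = 0.415). Schwann cell and neuron markers, which belong to cells that can also make this protein, moved in the same direction at 7 weeks. Their summed level was 9587 to 12050 CPM in Control rats, 7734 to 10233 after 3 weeks and 3314 to 6882 after 7 weeks, 2 of 11 markers (Mbp and Pmp22, both of myelin, with log2 fold changes of -1.15 and -1.08) were called lower at 7 weeks, and their part in the fall of Sparcl1 was not tested.

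Of the otogelins, Otogl was called at both times and Otog at 7 weeks. Otogl (ENSRNOG00000030316) had 498, 462 and 475 CPM in the Control rats, 241, 281 and 225 CPM in the IDPN-3wk rats and 211, 249 and 256 CPM in the IDPN-7wk rats. Both exposed groups lay far below the Control rats and overlapped each other. The 3 means were 478 ± 18.5, 249 ± 28.7 and 239 ± 24.3 CPM (SD, n = 3). This was a fall of 0.94 on the log2 scale at 3 weeks (SE 0.108, edgeR adjusted p = 0.00273), 1.92-fold, and the value at 7 weeks was -1.002 (SE 0.108, edgeR adjusted p = 0.000621). By unadjusted p, Otogl ranked 29 of the 15517 genes at 3 weeks. Its difference at 3 weeks in means of log2(CPM + 2) was -0.86 within the libraries with fewer detected genes and -1.09 within the others, and it was called at 3 weeks with each library left out in turn.

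Otog (ENSRNOG00000010983) was close to constant in the Control rats, with 8340, 8545 and 8535 CPM, a coefficient of variation of 1.36%. It had 4770, 5710 and 3541 CPM in the IDPN-3wk rats and 2477, 4439 and 3683 CPM in the IDPN-7wk rats, where the coefficients of variation were 23.3% and 28%. Every exposed rat was thus below every Control rat, and the exposed groups overlapped. At 7 weeks Otog fell 2.4-fold, with a log2 fold change of -1.26 (SE 0.21, edgeR adjusted p = 0.00678). At 3 weeks the log2 fold change was -0.86 (SE 0.209) and missed the threshold (edgeR adjusted p = 0.0759), although DESeq2 called it, as did edgeR without IDPN-7wk replicate 1 (adjusted p = 0.0354). The differences at 3 weeks were -0.71 within the libraries with fewer detected genes and -1.25 within the others, and at 7 weeks -1.3 within the others. As counts, not per length, the 9 genes made up 1.27 to 1.34% of each Control library, 0.723 to 0.959% of each IDPN-3wk library and 0.556 to 0.796% of each IDPN-7wk library, and Otog gave between 47.6% and 63.2% of those counts.

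Otoa (ENSRNOG00000017487), the attachment protein, had a smaller difference that was already present at 3 weeks. The Control rats had 1776, 1492 and 1624 CPM, the IDPN-3wk rats 989, 1220 and 1106 CPM and the IDPN-7wk rats 1263, 1053 and 1209 CPM. Both exposed groups were below the Control range, and they overlapped each other. The means were 1631 ± 142, 1105 ± 116 and 1175 ± 109 CPM (SD, n = 3). Against Control the log2 fold change was -0.56 after 3 weeks (SE 0.107, edgeR adjusted p = 0.0301). After 7 weeks it was -0.47 (SE 0.107, edgeR adjusted p = 0.029). Both passed the p threshold, but the 1.48-fold and 1.39-fold lower levels did not reach the fold change of 1.5, so Otoa was not called. Its adjusted p at 3 weeks ran from 0.000192 (DESeq2) to 0.163 (edgeR, only the libraries with more detected genes) over the alternatives. Without IDPN-3wk replicate 2 it was called at 3 weeks (log2 fold change -0.64, edgeR adjusted p = 0.041). The differences at 3 weeks were -0.56 within both sets of libraries.

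Of the tectorins, Tectb fell after 7 weeks and Tecta was not called. Tectb (ENSRNOG00000015671), which in the utricle is known from the striola, the central stripe of the epithelium, had 373, 395 and 311 CPM in the Control rats, 150, 264 and 249 CPM in the IDPN-3wk rats and 79.4, 135 and 111 CPM in the IDPN-7wk rats. No exposed rat reached the Control range, and all IDPN-7wk rats were below all IDPN-3wk rats. The fall at 7 weeks was 3.31-fold, the widest of the 4 falls called at that time, with a log2 fold change of -1.73 (SE 0.237, edgeR adjusted p = 0.00241). At 3 weeks the value was -0.70 (SE 0.232, edgeR adjusted p = 0.174), with -0.64 within the libraries with fewer detected genes and -0.62 within the others, and DESeq2 gave an adjusted p of 0.0491.

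Tecta (ENSRNOG00000031126) had 251, 205 and 186 CPM in the Control rats, 235, 177 and 167 CPM in the IDPN-3wk rats and 162, 174 and 123 CPM in the IDPN-7wk rats. The IDPN-7wk rats were below the Control rats by a small margin, and the IDPN-3wk rats overlapped both groups. Neither difference was called, with log2 values of -0.15 after 3 weeks (95% interval -0.54 to 0.24, edgeR adjusted p = 0.737) and -0.48 at 7 weeks (interval -0.87 to -0.095, adjusted p = 0.155). Ceacam16 (ENSRNOG00000031391) had between 0 and 239 counts per library, with 1.35, 1.75 and 2.14 CPM in the Control rats, 0, 4.48 and 2.98 CPM in the IDPN-3wk rats and 4.87, 3.02 and 1.7 CPM in the IDPN-7wk rats. The groups overlapped, and the 0 in IDPN-3wk replicate 1 allows up to 0.0818 CPM. Its fold changes were poorly determined, with a log2 value of 0.87 and a 95% interval of -1.76 to 3.5 at 7 weeks (edgeR adjusted p = 0.776).

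**Figure D2:**
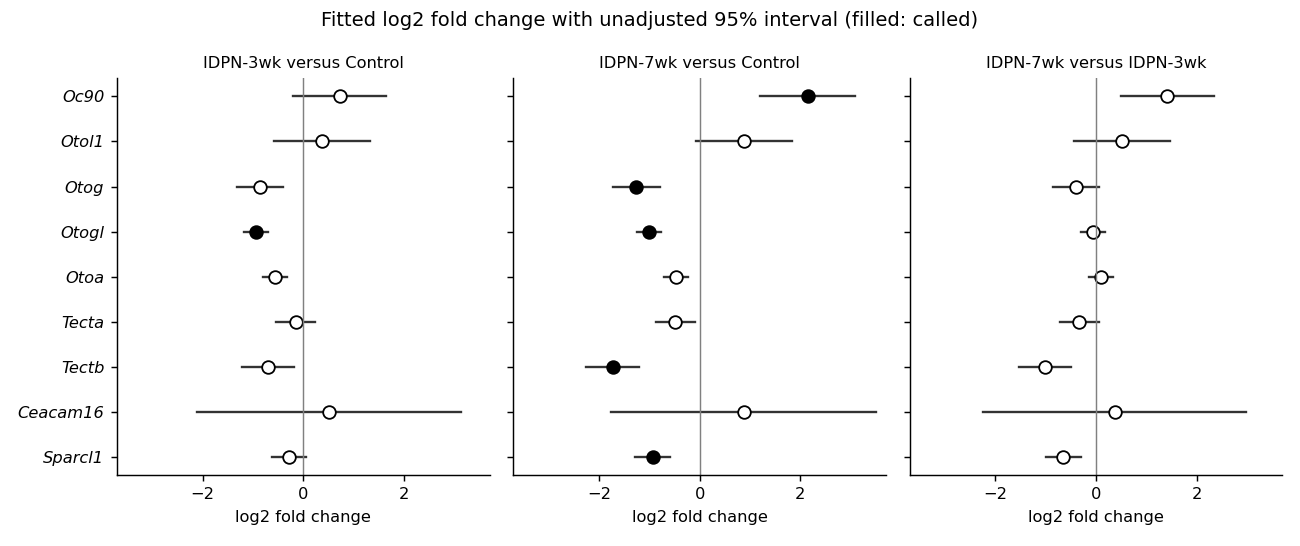
Fitted log2 fold changes of the 9 genes in the 3 comparisons, with unadjusted 95% intervals as lines and filled points for called genes. At 7 weeks Oc90 lies at 2.14 and Tectb at -1.73, and the comparison of the exposed groups has no filled point.

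Whether a gene differed between the rats of 3 and of 7 weeks was tested directly. These were different rats, killed at the end of each exposure, so its length and any difference in age cannot be told apart. Of the 9 genes, edgeR called 0 in IDPN-7wk against IDPN-3wk rats, where 0.135% of all genes were called lower and 0.348% higher, while 3 of the 9 had an unadjusted p under 0.05. These 3 genes, Oc90, Tectb and Sparcl1, were also the ones whose exposed groups did not overlap (background 21.0%) and the ones that DESeq2 called (background 3.87%). Tectb had a log2 fold change of -1.03 (SE 0.233, edgeR adjusted p = 0.101) and was called without IDPN-3wk replicate 1 (adjusted p = 0.0431). Oc90 had a log2 fold change of 1.42 (SE 0.417, edgeR adjusted p = 0.191) and was called without IDPN-3wk replicate 3 (adjusted p = 0.0478). That rat gave the only IDPN-3wk library with more detected genes. For Sparcl1 the value was -0.65 (SE 0.156, edgeR adjusted p = 0.12). Otogl and Otoa had small log2 fold changes between the exposed groups, of -0.059 (95% interval -0.3 to 0.18) and 0.089 (interval -0.15 to 0.33). For Otog the value was -0.40 (interval -0.87 to 0.058). Within the libraries with more detected genes, the differences of means of log2(CPM + 2) were 0.63 for Oc90 and -0.044 for Otog. The fitted values there were 0.76 and -0.009. For Tectb and Sparcl1 the differences of means were -1.22 and -0.64, and for Otogl and Otoa 0.081 and 0.083. These values set 3 IDPN-7wk rats against 1 IDPN-3wk rat, so they are given as sizes only.

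Whether paired genes moved by equal amounts was followed in ratios, which do not depend on how libraries are scaled. The log2 ratio of Tectb to Tecta counts was 0.57, 0.946 and 0.746 in the Control rats, -0.651, 0.581 and 0.58 in the IDPN-3wk rats and -1.03, -0.366 and -0.147 in the IDPN-7wk rats. All IDPN-7wk rats were below all Control rats, a mean difference of -1.27, and IDPN-3wk replicate 1 stood apart from the other 2 rats of its group. The log2 ratio of Otoa to Otog was -2.23, -2.52 and -2.39 in the Control rats and -0.971, -2.08 and -1.61 in the IDPN-7wk rats, a mean difference of 0.83. The ratio of Otogl to Otog had smaller differences, with group means of -4.15 (Control), -4.21 (IDPN-3wk) and -3.85 (IDPN-7wk). The two-sided exact permutation p was 0.1 for the first pair of differences, the smallest that 3 rats against 3 can give, and 0.337 after adjustment over the 9 ratio comparisons made, so the ratios could not pass the threshold in this design.

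Other matrix genes were taken from a list of 15 genes drawn up for gels and otoconia, of which 13 were tested. A place on this list does not show that a protein is part of those structures. At 3 weeks 2 were called lower (Spp1 and Col9a1) and 0 higher, and at 7 weeks 3 were called lower (Spp1, Otos and Col9a2) and 1 higher (Emilin2), where the shares over all genes were 1.21% lower and 0.438% higher at 3 weeks and 3.13% lower and 2.00% higher at 7 weeks. Their log2 fold changes had a median of -0.57 and -0.44. Spp1 encodes osteopontin, a mineral-binding protein that in the vestibular epithelium also marks type I HCs, so it does not stand for supporting cells alone. Its mean was 5178 ± 385 CPM in Control rats, 2989 ± 321 after 3 weeks and 1495 ± 153 after 7 weeks (SD, n = 3). Against Control it fell by 0.79 (edgeR adjusted p = 0.00709) at 3 weeks and by 1.79 (adjusted p = 2.9e-05) at 7 weeks on the log2 scale. Spp1 was the only gene of the list that edgeR called between the exposed groups (-0.999, adjusted p = 0.00326). In that comparison 0.135% of all genes were called lower and 0.348% higher, and 6 of the 13 list genes had an unadjusted p under 0.05. Otos, which encodes otospiralin, fell at 7 weeks from 578 ± 71.9 to 318 ± 60.7 CPM (log2 fold change -0.86, edgeR adjusted p = 0.00705).

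Collagen IX is a component of the tectorial membrane and of cartilage. Its chain Col9a1 was called lower at 3 weeks (log2 fold change -0.74, edgeR adjusted p = 0.0405) but not at 7 weeks (-0.44, adjusted p = 0.137). Its chain Col9a2 was called lower at 7 weeks (-1.06, edgeR adjusted p = 0.0267) but not at 3 weeks (-0.67, adjusted p = 0.198). Its chain Col9a3, added after its values were seen, was called at neither time. It had -0.57 at 3 weeks (edgeR adjusted p = 0.0387, short of the fold threshold) and -0.10 at 7 weeks (adjusted p = 0.714). Emilin2, which encodes an elastic fibre protein, rose at 7 weeks from 12.1 ± 4.69 to 46.3 ± 10.3 CPM (log2 fold change 1.93, edgeR adjusted p = 0.00472). Sparc, the paralog of Sparcl1, had 1404 ± 70.7 CPM in Control and 1171 ± 130 CPM in IDPN-7wk rats (log2 fold change -0.26, edgeR adjusted p = 0.205). Zpld1, which encodes a protein of the cupula, differed by 0.28 on the same scale at 7 weeks (edgeR adjusted p = 0.376).

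Genes needed for otoconia to form, or for the calcium and acid balance of the endolymph around them, were followed in a list of 13, of which 11 were tested and Foxi1 and Trpv5 had 0 counts in every library. At 3 weeks 1 was called lower (Atp2b2, against 1.21% of all genes) and at 7 weeks 2 were (Atp2b2 and Otop1, against 3.13%). Between the exposed groups edgeR called 0 of the 11, with 0.135% of all genes called lower, while 3 had an unadjusted p under 0.05 and DESeq2 called 1 (3.87% of all genes). The median log2 fold changes were -0.15 and -0.47. Otop1, which encodes the proton channel otopetrin-1 and is required for otoconia, fell at 7 weeks from 29.7 ± 8.55 to 9.52 ± 4.08 CPM (log2 fold change -1.64, SE 0.345, edgeR adjusted p = 0.0201). Atp2b2, the calcium pump of hair bundles, fell at both times, by 1.51 (edgeR adjusted p = 0.000758) and 1.54 (adjusted p = 0.000182) on the log2 scale. Nox3, the oxidase without which otoconia do not form, was singled out after its values were seen and had a wide spread, with 42 ± 26.8 CPM in Control and 11.6 ± 8.94 CPM in IDPN-7wk rats (log2 fold change -1.86, edgeR adjusted p = 0.2). Slc26a4, the anion exchanger pendrin, had 88 ± 22.3 and 92.9 ± 11.6 CPM (log2 fold change 0.077, edgeR adjusted p = 0.904).

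**Figure D3:**
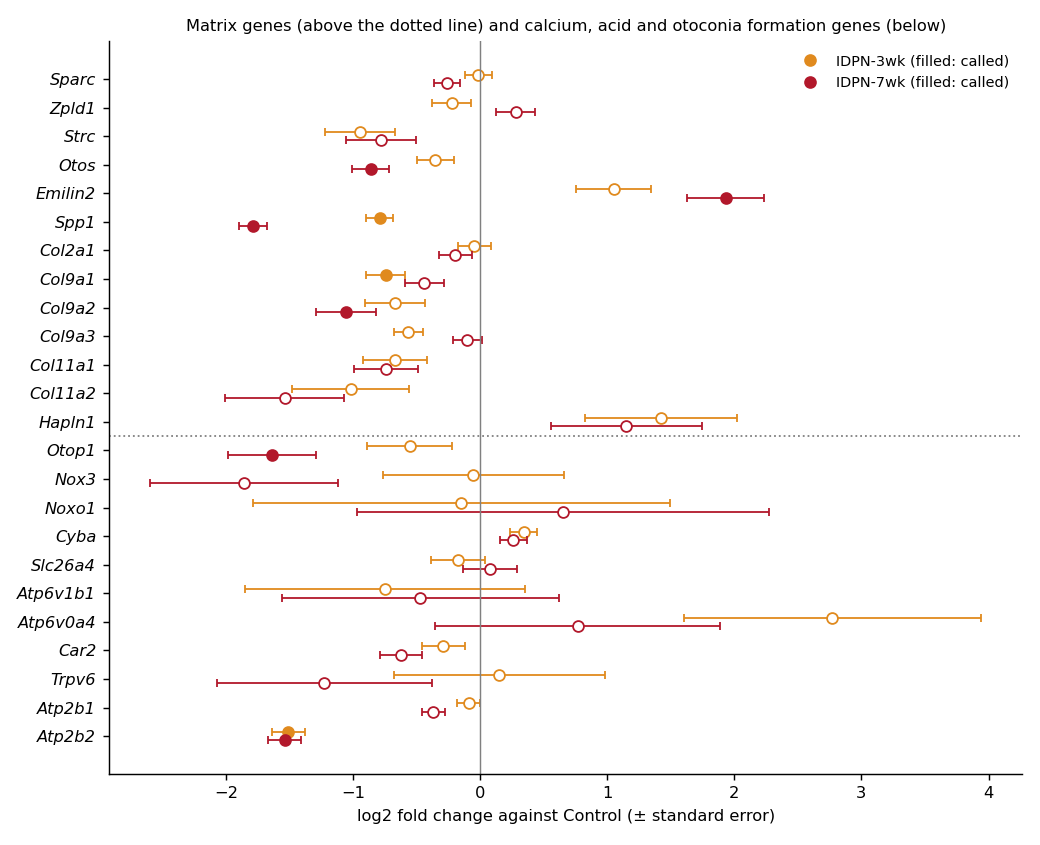
Log2 fold changes against Control, with standard errors, of the tested matrix genes (above the dotted line) and the tested genes of otoconia formation and endolymph calcium and acid handling (below), at 3 weeks in orange and 7 weeks in red, filled where called. Spp1, Col9a1 and Atp2b2 are filled at 3 weeks, and Otos, Emilin2, Spp1, Col9a2, Otop1 and Atp2b2 at 7 weeks.

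Markers of the cells in the sample were counted in the same libraries, and their calls are read against 1.21% of all genes lower and 0.438% higher by edgeR at 3 weeks (5.04% in either direction by DESeq2) and 3.13% lower and 2.00% higher at 7 weeks (8.81% by DESeq2). All 15 supporting cell markers were tested, and edgeR called 0 at 3 weeks (4 with an unadjusted p under 0.05 and 1 called by DESeq2) and 2 at 7 weeks, both lower, namely Gjb6 (connexin 30, log2 fold change -1.03, edgeR adjusted p = 0.000979) and Tmprss3 (-0.87, adjusted p = 0.01). Their median log2 fold changes were -0.27 and -0.29, and their summed level was 4731 to 5273 CPM in Control rats, 3953 to 4816 after 3 weeks and 3578 to 3851 after 7 weeks. Gjb6 was also called lower between the exposed groups (-0.69, edgeR adjusted p = 0.0426), as 1 of the 15, while 5 had an unadjusted p under 0.05. In that comparison edgeR called 0.135% of all genes lower and 0.348% higher. In the list for transitional, dark and roof cells, the nonsensory cells around the sensory patch, 1 of 12 was called higher at 3 weeks (Bsnd, a chloride channel subunit, log2 fold change 1.34, edgeR adjusted p = 0.0128) and 3 were called lower at 7 weeks (Kcnq1 at -1.46, Slc12a2 at -1.33 and Kcnj10 at -0.97, which serve potassium transport), with median log2 fold changes of -0.13 and -0.32. The summed level of that list was 1355 to 1644 CPM in Control rats, 1024 to 1153 after 3 weeks and 698 to 1058 after 7 weeks. Of 14 HC markers tested, 5 were called lower at 3 weeks (Otof, Calb2, Tmc1, Myo15a and Ptprq) and 10 at 7 weeks (also Pou4f3, Slc17a8, Espn, Cdh23 and Cabp2), with medians of -0.73 and -1.16 and summed levels of 2498 to 3019, 1154 to 1550 and 1184 to 1325 CPM in the 3 groups. The part of these cell types in the changes of the 9 genes was not tested. IDPN-7wk replicate 1 had the lowest summed level of supporting cell, of transitional, dark and roof cell and of Schwann cell and neuron markers among the 9 rats, and also the lowest level of Otog, Otogl, Tectb and Sparcl1. With that library left out, these 4 genes were still called lower at 7 weeks. The same held with both libraries of the shared title code (replicate 1 of each exposed group) left out, when edgeR called the same 5 of the 9 genes at 7 weeks, Otogl at 3 weeks and 0 between the exposed groups.

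**Figure D4:**
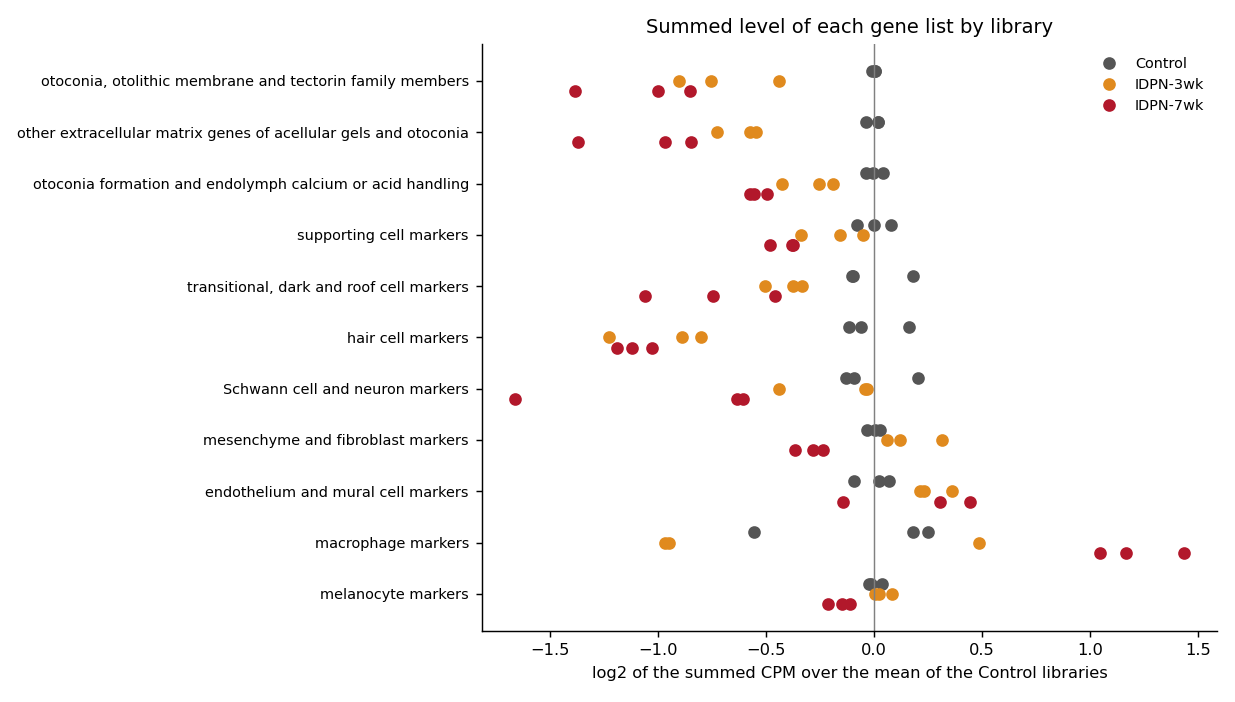
Summed CPM of each gene list in each library, as log2 of its ratio to the mean of the 3 Control libraries. The sum of the 9 otoconia and gel genes lies below 0 in every exposed rat, though not each gene does. The sums of the other matrix, otoconia formation, supporting cell, transitional, dark and roof cell, HC, and Schwann cell and neuron lists also lie below 0 there, while that of the macrophage markers lies above 0 in all IDPN-7wk rats.

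Over the 9 libraries, the genes most like each of the 9 in log2(CPM + 2) were listed as a description. The libraries share the exposure groups and the set with fewer detected genes, and no p is given. Oc90 was closest to Atp2c1 (r = 0.971), Npr1 (0.958) and Scnn1a (0.954), which encode a calcium and manganese pump of the Golgi, a natriuretic peptide receptor and a subunit of the epithelial sodium channel. Otog was closest to Cep128 and Sgms1 (0.981 for both) and Celsr1 (0.972), and Otogl to Dlec1 (0.987), Hydin (0.986) and Shank2 (0.984), of which Hydin encodes a protein of motile cilia. Tectb was closest to Abca8a (0.985), Ncam1 (0.981) and Igfbp5 (0.976), and Sparcl1 to Acsl3 (0.991), Ddn (0.985) and Lrrn1 (0.984). For Otoa the closest genes were Rnf165 (0.978), Camkmt (0.976) and Myo3b (0.967), and for Otol1 they were Ccdc61 (0.971), Cox7a2l2 (0.949) and Tcea3 (0.944). Among the closest to Tecta were Gab2 and AABR07024457.1 (0.894 for both), and those of Ceacam16 were Trappc11 (0.972), Fchsd1 (0.961) and Nup88 (0.942). Among the 9 genes themselves, the closest pairs were Tectb with Sparcl1 (0.969) and Otog with Otogl (0.933), and Oc90 ran against Tectb (-0.813).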

How the data were processed

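RNA from vestibular epithelia of 9 rats was sequenced after SMARTseq2, a method with PCR amplification of cDNA. Reads were mapped by the authors to Rnor6.0 with STAR 2.5.3a and counted per gene by RSEM (1.3.0 in the processing notes of the submitters) on the Rnor6.0.92 annotation. The deposited values are these expected counts, given as whole numbers with no normalization, and the strand setting is not stated. Symbols and identifiers are those of the table, and 4258 entries share a symbol with another.

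With R 4.3.3, genes were kept by filterByExpr and scaled by TMM, and 15517 genes were tested in 1 fit of all 9 libraries with edgeR 4.0.16 (robust quasi-likelihood test, a mean per group, 6 residual degrees of freedom) with Benjamini-Hochberg adjustment per comparison. Calls needed a fold change above 1.5 with an adjusted p under 0.05, following the study, which used DESeq2. The pipeline was tested on simulated data with known changes. Those data held no set of libraries with fewer detected genes, so the test does not bear on that set. Detected genes are those with at least 1 count after scaling to the smallest library, and the set with fewer genes was parted at the widest gap. Ratios were tested by exact permutation (SciPy 1.17.1). Promoter sequences are from RefSeq on GRCr8. The replicate numbers are only names. Libraries within groups differed beyond sampling noise (lowest chi-square per gene 18.7).

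The 9 genes and all lists were chosen with earlier results of these data known. Named genes are the 9, list genes called in any comparison or (Sparc, Otop1, Zpld1, Slc26a4) known for otoconia or the cupula, and the 3 genes closest to each of the 9, of which 1 is not reported here. Nox3 and Col9a3 were added after their values were seen. Alternatives were DESeq2 1.42.0, RLE size factors, no filter, only the 2 groups compared, a minimum of 10 counts per library, no fold change threshold or one of 2, the set with fewer detected genes as a covariate, each library left out in turn and, added after seeing the data, only the libraries outside that set, and only those whose title code is found in 1 group.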

Additional observations from a re-analysis of the deposited data

How the results depend on the processing

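At 7 weeks, between 4 and 6 of the 9 genes were called under all 19 alternatives (4 to 5 with a library left out), against 5. The gene lost with Control replicate 1, Control replicate 2 or IDPN-7wk replicate 3 left out was Oc90. At 3 weeks, where 1 gene was called, DESeq2 called 3, at least 10 counts in every library gave 2, no fold change threshold gave 2 and a fold change above 2 gave 0. Leaving out a library gave 1 to 2. For the exposed groups against each other, where 0 were called, DESeq2 called 3 and leaving out a library gave 0 to 1. The cause of these differences was not tested, other than the threshold itself. Signs turned only for values that were never called. The log2 fold change of Ceacam16 was -0.232 at 3 weeks without IDPN-3wk replicate 2 (and 1.09 without replicate 1), and between the exposed groups it was -0.219 without IDPN-3wk replicate 1 and -0.0728 without IDPN-7wk replicate 1, and at most 1.1 (without IDPN-3wk replicate 2). That of Otogl between the exposed groups was 0.00908 with the 3 libraries of fewer detected genes as a covariate, 0.0815 in only the libraries outside it, 0.0364 without IDPN-3wk replicate 2 and 0.0228 without IDPN-7wk replicate 1, and as low as -0.126 without IDPN-3wk replicate 3. Without replicate 1 of both exposed groups, which share a title code, that comparison gave -0.659 for Ceacam16 and -0.0415 for Otoa. RLE size factors changed no call among the 9 genes. Where a group was left with 1 library, it was assumed to vary like the other groups. No paired analysis was possible because the labels give no replicate numbers and the groups share only 1 title code. Oc90, Otol1 and Ceacam16 rest on 0 to 873 counts per library, so their changes are the least precise of the group.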

Other observations

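Markers of other cell types were counted in the same libraries, where 3.13% of all genes were called lower and 2.00% higher at 7 weeks. Of 9 macrophage markers, edgeR called 0 at 3 weeks (0 with an unadjusted p under 0.05 and 0 called by DESeq2) and 1 at 7 weeks, C1qb, a complement subunit that rose from 13.7 ± 4.91 to 44.5 ± 4.08 CPM (SD, n = 3, log2 fold change 1.7, edgeR adjusted p = 0.00958). All 9 had a higher fitted level at 7 weeks, the median being 1.48 on the log2 scale, and their summed level was 71.2 to 124 CPM in Control and 216 to 283 CPM in IDPN-7wk rats. In the endothelium and mural cell list, 1 of 6 was called at 7 weeks, Cdh5 (log2 fold change 0.67, edgeR adjusted p = 0.0494), and in the mesenchyme and fibroblast list 1 of 8, Lum, which was lower (-1.83, adjusted p = 0.0163). At 3 weeks edgeR called 0 of the 6 endothelium genes (1 with an unadjusted p under 0.05 and 0 called by DESeq2) and 0 of the 8 mesenchyme genes (2 with an unadjusted p under 0.05 and 1 called by DESeq2). Of 5 melanocyte markers tested, edgeR and DESeq2 called 0 at either time, with an unadjusted p under 0.05 for 0 at 3 weeks and 2 at 7 weeks, and their summed level was 522 to 544 CPM in Control, 531 to 561 CPM in IDPN-3wk and 458 to 491 CPM in IDPN-7wk rats.

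Within the sets of libraries with fewer and more detected genes, Tecta differed between IDPN-3wk and Control rats by 0.13 and -0.44 on the log2(CPM + 2) scale. For Otol1 the corresponding differences were 0.63 and 0.16, and for Sparcl1 -0.33 and -0.30.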
